A study of Homo sapiens with 12 samples.

Results

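HAGLR is a long noncoding RNA transcribed from the HOXD cluster on chromosome 2, on the strand opposite to the HOXD genes. It was described here together with the 8 HOXD genes that share the locus, HOXD1, HOXD3, HOXD4, HOXD8, HOXD9, HOXD10, HOXD11 and HOXD13. These 9 genes were taken by symbol from the 28278 genes of the count matrix. HAGLR was chosen because its counts fell deeply in HCQ-evolved OVCAR3, so its values in that contrast are a description and carry no test. The HOXD genes were taken for their place in the cluster, after the values had been seen.

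The cells were OVCAR3, labelled as an ovarian cancer line, and CCL218, labelled as a colorectal cancer line. HCQ-evolved cells had been exposed to hydroxychloroquine (HCQ), an inhibitor of lysosomal function, in 15 pulses of 48 h, and had then grown for 7 days without drug before collection. Control cells were passaged without drug. Control pools were labelled passage 19 and HCQ-evolved pools passage 15, so passage and drug history cannot be told apart. PolyA RNA was sequenced from 3 pools per group, labelled L, M and R and pooled by plate position, and each group came from a single plate. The p-values below therefore measure the spread between pools of a plate.

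The 12 libraries held 31147822 to 59965861 counts, and 3 counts, taken as the floor of detection, correspond to 0.0501 to 0.0942 CPM (counts scaled to library size with TMM factors). The cell line labels were checked against 10 ovarian and 10 colorectal markers before any result was read. Of the ovarian markers, SOX17 had 0 counts in every library, EMX2, CDH6 and ESR1 had at most 4 counts in any library, and 5 of 10 reached 1 CPM in every pool of each of the 4 groups. Their summed level was 87.4 to 107 CPM in control OVCAR3 and 66.8 to 96.2 CPM in HCQ-evolved OVCAR3, against 131 to 165 CPM in control CCL218 and 156 to 189 CPM in HCQ-evolved CCL218. MSLN carried that gap, and without it the sums overlapped between the lines, at 73.7 to 89.9 and 57.7 to 94.0 CPM in control and HCQ-evolved OVCAR3 and 70.0 to 92.4 and 60.7 to 71.6 CPM in control and HCQ-evolved CCL218. PAX8 (12.01 ± 2.79 against 8.31 ± 2.57 CPM), MUC16 (22.4 ± 8.83 against 8.65 ± 5.04) and FOLR1 (4.93 ± 1.19 against 2.56 ± 0.666) had higher means in control OVCAR3 than in control CCL218 (SD, n = 3). The pools of PAX8 and MUC16 overlapped between these groups. MECOM (44.3 ± 8.01 against 61.4 ± 18.2 CPM) and MSLN (14.3 ± 3.81 against 63.6 ± 27.1) had lower means in control OVCAR3. WT1 was at 0.296 ± 0.167 against 0.267 ± 0.108 CPM in the control groups and at 1.60 ± 0.865 against 1.13 ± 0.244 CPM in the HCQ-evolved groups. In the HCQ-evolved groups the order of PAX8 turned (8.48 against 9.53 CPM), and that of MUC16 and FOLR1 did not. Of the colorectal markers, 7 reached 1 CPM in every control OVCAR3 pool, 6 in every HCQ-evolved OVCAR3 pool and 7 in both CCL218 groups, with KRT20 at most at 4 counts in any library. Their summed level was 330 to 432 CPM in control OVCAR3, 137 to 235 CPM in HCQ-evolved OVCAR3, 391 to 438 CPM in control CCL218 and 492 to 542 CPM in HCQ-evolved CCL218. The libraries labelled OVCAR3 thus held intestinal transcripts and lacked several defining ovarian ones, and the names OVCAR3 and CCL218 below are those of the labels. The part of these markers in the results below was not tested.

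HOX genes encode homeodomain transcription factors that set position along the body axis, and in humans they lie in 4 clusters, HOXA to HOXD. Genes at the HOXD1 end of the HOXD cluster act in anterior tissues and those at the HOXD13 end act in the posterior trunk, limb, hindgut and urogenital tract. Polycomb complexes keep HOX genes silent where they are not used, and Trithorax proteins keep them active where they are. Long noncoding RNAs such as HAGLR in HOXD, HOTTIP in HOXA and HOTAIR in HOXC are transcribed from within the clusters.

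In GENCODE 44 on hg38, HAGLR spans positions 176164051 to 176188958 of chromosome 2 on the minus strand and has 5120 exonic bases. HAGLROS, a shorter noncoding RNA on the plus strand, lies inside it at 176177717 to 176179009 and shares 422 exonic bases with it (8.2% of those of HAGLR). HOXD1, at 176188668 to 176190907 on the plus strand, shares 145 exonic bases with HAGLR (2.8%), and HOXD3, at 176136612 to 176173102 on the plus strand, shares 138 (2.7%). HOXD4, HOXD8, HOXD9, HOXD10, HOXD11 and HOXD13 share none. The sources used here do not give the strand setting of the counting, so reads in the shared bases cannot be assigned to a strand.

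Start regions were available for 8 of the 9 members in RefSeq on GRCh38.p14 (250 bases before to 50 bases after each start). HAGLR had 4 such windows. The promoters of HAGLR, HOXD1 and HOXD8 are shown in lower case, with each CACGTG, the E-box letters, in capitals. HOXD1 is shown for its place beside HAGLR and had no counts in OVCAR3. The first covers the innermost HAGLR start (chr2:176178080-176178379, minus strand), which lies 37 bases from the HAGLROS start on the opposite strand. Counts per gene do not show which of the 4 HAGLR starts was used. The second is the stretch before HOXD1 (chr2:176188418-176188667, plus strand), whose start is 96 bases from another HAGLR start on the opposite strand. The third is the stretch before HOXD8 (chr2:176129455-176129704, plus strand), the HOXD gene with most counts.

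HAGLR (with HAGLROS on the other strand): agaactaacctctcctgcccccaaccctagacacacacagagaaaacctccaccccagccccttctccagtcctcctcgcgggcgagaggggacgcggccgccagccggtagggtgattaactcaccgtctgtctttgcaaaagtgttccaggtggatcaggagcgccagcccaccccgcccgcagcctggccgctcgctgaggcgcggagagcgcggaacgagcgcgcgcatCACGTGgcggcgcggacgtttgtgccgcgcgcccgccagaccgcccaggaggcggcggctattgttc

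HOXD1: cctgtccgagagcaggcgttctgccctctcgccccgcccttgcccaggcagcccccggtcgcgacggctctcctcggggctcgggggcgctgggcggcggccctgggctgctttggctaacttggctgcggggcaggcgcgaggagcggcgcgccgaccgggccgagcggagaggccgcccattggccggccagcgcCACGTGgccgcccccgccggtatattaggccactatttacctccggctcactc

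HOXD8: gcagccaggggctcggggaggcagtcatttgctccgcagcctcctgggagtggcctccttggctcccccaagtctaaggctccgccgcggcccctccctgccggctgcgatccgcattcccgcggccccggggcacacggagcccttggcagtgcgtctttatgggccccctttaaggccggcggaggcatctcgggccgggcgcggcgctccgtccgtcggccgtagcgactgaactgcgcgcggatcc

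The E-box lay 17 bases before the HAGLR start and, as the same letters read from the other strand, 25 bases before the HAGLROS start. Another lay 53 bases before the HOXD1 start and 48 bases before the neighbouring HAGLR start. HOXD3, HOXD10, HOXD11 and HOXD13 each held 1 as well, and HOXD4 and HOXD8 held none. E-boxes occur in 7.26% of all 35116 windows. The homeodomain letters TAATTA (4.84% of windows) were found before HOXD3 and HOXD11, the HOX-PBX letters TGATNNAT (7.40%) before HOXD11 and the TATA box TATAAA (11.5%) before HOXD13, on either strand. HAGLR held none of these 3 in any window. No member window held TGANTCA (AP-1, 7.71%), GCGTGGGCG (EGR, 0.795%), the direct-repeat retinoic acid response element (0.0057%) or the CTCF core (0.0655%). Over the whole windows of 300 bases, the printed HAGLR window holds 33 CpG dinucleotides (82.8th percentile of all windows), HOXD1 holds 36 (87.3rd) and HOXD8 holds 34 (84.4th), whereas HOXD4 holds 4 (24.5th). These matches describe the reference sequence, and no binding was measured.

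HAGLR was detected well above the floor in control OVCAR3 and in no other group. It had 70, 62 and 94 counts in control OVCAR3 pools L, M and R, which are 1.80, 1.95 and 1.74 CPM. HCQ-evolved OVCAR3 pools had 4, 0 and 0 counts. Control CCL218 pools had 2, 0 and 0 counts, and HCQ-evolved CCL218 pools had 0, 2 and 0. All 3 control OVCAR3 pools were thus higher than the other 9 pools, which overlapped one another, and only HCQ-evolved OVCAR3 pool L among those 9 exceeded the floor.

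The mean level of HAGLR was 1.83 ± 0.106 CPM in control OVCAR3 (SD, n = 3) and 0.0233 ± 0.0403 CPM in HCQ-evolved OVCAR3. All 19 member counts above 0 were even, as were 78.9% of the 29816 entries of 1 to 4 counts in the matrix, so pooled counts were compared as read pairs, at 2 counts a pair. HAGLR had 113 pairs in control and 2 in HCQ-evolved OVCAR3, a 76.5-fold higher level in control (95% interval 20.7 to 639, counting error only). The edgeR log2 fold change was -6.11 (SE 0.75). HAGLR was the only member called in this contrast, in which 1.86% of 12204 genes passed, 1.21% as lower, and in which 12.7% were lower with no overlap between the groups. As the contrast was used to choose HAGLR, nothing is read from that call. In bulk RNA, fewer HAGLR-expressing cells and less HAGLR per cell cannot be told apart.

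Among the control pools HAGLR differed between the lines. Control OVCAR3 was 121-fold higher than control CCL218 (113 pairs against 1, 95% interval 21.3 to 4820), again as a description. HCQ-evolved OVCAR3 pools, with 4, 0 and 0 counts, lay in the range of the 6 CCL218 pools but for pool L. In CCL218 the groups overlapped. The difference between them was -0.01 in mean log2(CPM + 0.5) (exact permutation test, two-sided, p = 1, where 3 against 3 pools cannot go below 0.1), and with 1 pair in each group no change was detectable at this depth.

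**Figure D1:**
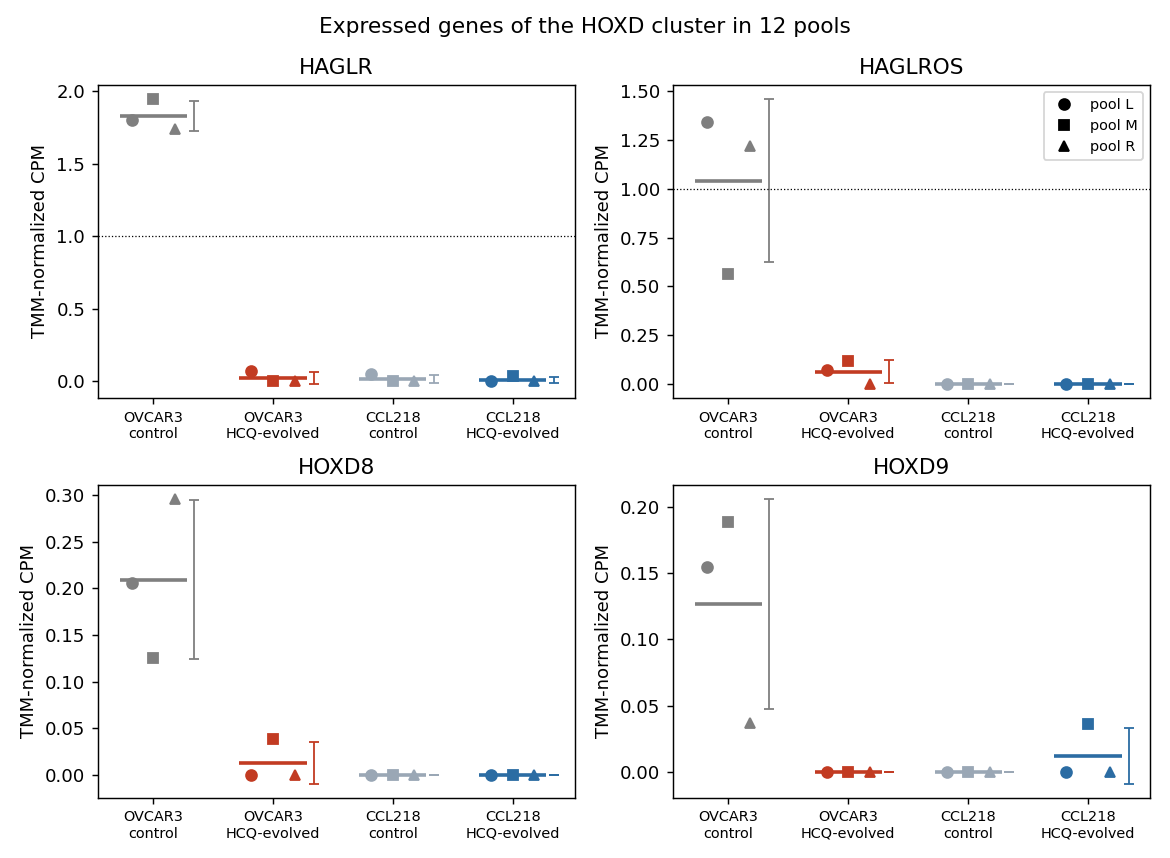
TMM-normalized CPM (y axis, linear, a different range in each panel) of HAGLR, HAGLROS, HOXD8 and HOXD9 in the 4 groups (x axis), with a point per pool (circle L, square M, triangle R), the mean as a horizontal line, the SD of 3 pools as a bar and, for HAGLR and HAGLROS, a dotted line at 1 CPM. Control OVCAR3 pools lie at 1.74 to 1.95 CPM for HAGLR and above every other pool for HAGLROS and HOXD8, whereas for HOXD9 the lowest control OVCAR3 pool (0.0370 CPM) is close to an HCQ-evolved CCL218 pool (0.0364 CPM).

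HAGLROS, the noncoding RNA that lies inside HAGLR on the other strand, had most of its counts in the same group. Its counts were 52, 18 and 66 in control OVCAR3 and 4, 6 and 0 in HCQ-evolved OVCAR3, and they were 0 in all 6 CCL218 pools. The groups of OVCAR3 did not overlap, and control pool M was the lowest of the controls. In pairs, control OVCAR3 was 18.4-fold above HCQ-evolved OVCAR3 (68 against 5, 95% interval 7.52 to 58.5). It was 48.5-fold above the level of 3 counts over control CCL218, taken as the floor, with no interval computed against 0 counts. HAGLROS did not reach 1 CPM in 3 libraries and was not in the main test. The difference of mean log2(CPM + 0.5) was -1.42 (exact permutation test, two-sided, p = 0.1, the smallest possible). When every gene with a count was fitted, its log2 fold change was -4.01 (SE 0.74, edgeR adjusted p = 0.00739 over 21434 genes). Since HAGLR was chosen on this contrast and shares 422 exonic bases with HAGLROS, the latter is not an independent observation.

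The 8 HOXD genes were at or near 0 in all groups. Of their 96 gene-by-library entries, 83 were 0 and 7 exceeded the floor of 3 counts. Summed over genes and pools, they had 48 counts in control OVCAR3, 2 in HCQ-evolved OVCAR3, 6 in control CCL218 and 4 in HCQ-evolved CCL218. None reached 1 CPM in any library, so none entered the main test in either line.

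HOXD8 and HOXD9, from the middle of the cluster, gave most of these counts. HOXD8 had 8, 4 and 16 counts in control OVCAR3 pools L, M and R and 0, 2 and 0 in HCQ-evolved OVCAR3. It had 0 in every CCL218 pool. The control and HCQ-evolved pools did not overlap, and in pairs control was 18.96-fold higher (14 against 1, 95% interval 2.88 to 802). HOXD9 had 6, 6 and 2 counts in control OVCAR3 and 0 in the HCQ-evolved pools. Its control level was 6.32-fold that of 3 counts over the HCQ-evolved pools, taken as the floor, with no interval computed against 0 counts. Control pool R, with 2 counts, was below the floor of a library.

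The difference of mean log2(CPM + 0.5) in OVCAR3 was -0.46 for HOXD8 and -0.32 for HOXD9 (exact permutation test, two-sided, p = 0.1 for each, the smallest the design allows). Both were lower without overlap between the groups, as were 7.48% of the 9230 genes that had a count but were below the filter. Fitted with every gene that had a count, HOXD8 was at a log2 fold change of -3.82 (SE 1.28, edgeR adjusted p = 0.155) and HOXD9 at -5.59 (SE 1.90, adjusted p = 0.174). Neither passed the threshold of 0.05, and the fitted fold of HOXD9 against 0 counts depends on the prior count. Against 3 counts over control CCL218 as the floor, control OVCAR3 was 9.99-fold higher for HOXD8 and 4.996-fold higher for HOXD9. These folds against 0 counts carry no interval.

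The posterior genes were rarer still. HOXD13, which acts in the digits and the hindgut, had 2 counts in control OVCAR3 pool L and 0 in the other 11 libraries. HOXD11 had 4 counts in control OVCAR3 pool M and 2 in control CCL218 pool L. HOXD10 had 0 counts in all 12 libraries, which allows at most 0.0501 to 0.0942 CPM in a library. HOXD12, a neighbour of the same cluster, had 6 counts in control OVCAR3 pool L and 0 elsewhere. These values come from single libraries.

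At the anterior end, HOXD3 had 0 counts in all 12 libraries although 138 of its exonic bases overlap HAGLR. HOXD1, which also overlaps HAGLR and whose start faces it, had 0 counts in every OVCAR3 pool and 2 in HCQ-evolved CCL218 pool M. HOXD4 had 4 counts in control CCL218 pool L and 0 in the other 11 libraries. In CCL218 the 9 members together had 14 counts over 6 pools. HOXD1, HOXD4, HOXD9 and HOXD11 gave adjusted p of 0.452 to 0.558 there when all 21730 genes with a count were fitted (edgeR). The microRNA gene MIR10B and the antisense gene HOXD-AS2 had 0 counts throughout, and EVX2, the homeobox gene beyond HOXD13, had 0 to 2 counts per library.

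Per kilobase of exon, the order of levels in control OVCAR3 was HAGLROS at 0.929 ± 0.372 CPM per kb (SD, n = 3), HAGLR at 0.357 ± 0.0208, HOXD8 at 0.0796 ± 0.0324 and HOXD9 at 0.0677 ± 0.0425. The pools of HAGLROS (lowest 0.504 CPM per kb) and HAGLR (highest 0.380) did not overlap, and HOXD8 and HOXD9 differed by less than their SD. HAGLROS shares 422 of its 1122 exonic bases with HAGLR, and reads there cannot be assigned to a strand. HAGLR was divided by all 5120 exonic bases, although the start in use is not known. The order of HAGLROS and HAGLR may rest on either, which was not tested. HOXD12 at 0.0200 ± 0.0347, HOXD11 at 0.0198 ± 0.0343 and HOXD13 at 0.00711 ± 0.0123 were within each other's spread. In HCQ-evolved OVCAR3 and both CCL218 groups no gene of the locus exceeded 0.0551 CPM per kb on average.

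The silence of HOXD contrasted with the other HOX clusters. The coding genes of HOXA summed to 94.4 ± 2.81 CPM per kb in control OVCAR3 (SD, n = 3), those of HOXB to 410 ± 66.0 and those of HOXC to 14.2 ± 3.15. The 9 HOXD coding genes summed to 0.194 ± 0.0563 CPM per kb in control OVCAR3, 0.00489 ± 0.00847 in HCQ-evolved OVCAR3, 0.0366 ± 0.0634 in control CCL218 and 0.0129 ± 0.0224 in HCQ-evolved CCL218. HOXD ranged from 0.132 to 0.243 over the control OVCAR3 pools and from 0 to 0.0147 over the HCQ-evolved ones, without overlap, whereas the CCL218 groups overlapped. At least 10 of 11 HOXA genes, 9 of 10 HOXB genes and 4 of 9 HOXC genes reached 1 CPM in each library, against 0 HOXD genes. HOXB9, the HOXB paralog of HOXD9, was at 162 ± 24.5 CPM per kb in control OVCAR3, and HOTAIR, a noncoding RNA of HOXC, was at 11.2 ± 0.162.

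**Figure D2:**
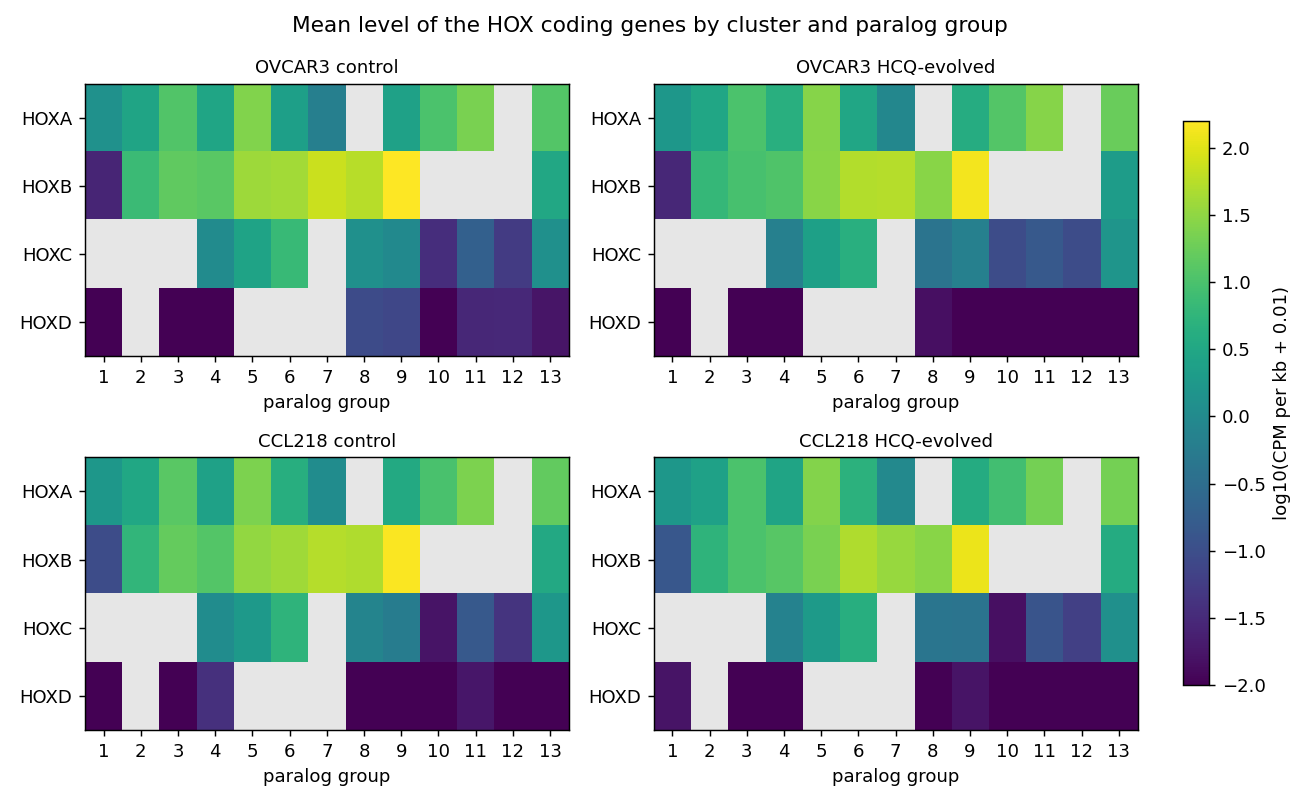
Mean level of each HOX coding gene in 3 pools as log10(CPM per kb of exon + 0.01), in colour, by cluster (rows) and paralog group (columns), in a panel per group of pools, with grey where a cluster has no gene. The HOXD row is at or near the bottom of the scale in all 4 panels, with HOXD8 and HOXD9 above the rest of it in control OVCAR3, while HOXB9 is the brightest cell of each panel.

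The HOXA, HOXB and HOXC genes were then read in the contrast of evolved and control cells. In OVCAR3, 34 genes of these clusters were tested and 0 passed (edgeR, with 6 at an unadjusted p under 0.05), against 1.86% of all genes, while DESeq2 called 3 (HOXA13, HOXB8 and HOXC8). The shares over the whole table were 16.2% for the unadjusted p and 9.05% for DESeq2. In CCL218, 33 were tested and 0 passed (6 at an unadjusted p under 0.05), against 6.46% of all genes (791, or 1744 with plate position as a block), while DESeq2 called 4 (HOXA-AS3, HOXA13, HOXB3 and HOXB8). The shares over the whole table were 25.2% for the unadjusted p and 17.7% for DESeq2. The median log2 fold change was -0.10 in OVCAR3 and -0.24 in CCL218, beside 0.02 and -0.02 over all genes tested. By cluster, 14 of 17 HOXA, 1 of 10 HOXB and 1 of 7 HOXC genes lay above 0 in OVCAR3, with medians of 0.21, -0.35 and -0.53. In CCL218 these were 6 of 17, 3 of 10 and 1 of 6, with medians of -0.20, -0.45 and -0.38. The difference between the lines passed for 0 of 34 genes (1 at an unadjusted p under 0.05), beside 0.872% of 12613 genes. Between the 2 control groups 0 of 34 passed (1 at an unadjusted p under 0.05), beside 3.42% of genes.

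Without a block, HOXB8 came closest to the threshold among the HOX genes named here. HOXB8, a trunk patterning gene, was at 134 ± 22.3 CPM in control and 68.2 ± 8.15 CPM in HCQ-evolved OVCAR3, a log2 fold change of -0.95 (SE 0.19, edgeR adjusted p = 0.0527), and the pools did not overlap. In CCL218 it was at 122 ± 35.0 and 68.0 ± 9.12 CPM, a log2 fold change of -0.84 (adjusted p = 0.0694). The CCL218 values above come from the fit without a block. With plate position as a block HOXB8 (log2 fold change -0.81, adjusted p = 0.00762) and HOXB3 (-0.62, adjusted p = 0.0389, against 0.104 without the block) passed. HOXB3 without the block was at -0.66 in CCL218 and -0.63 in OVCAR3 (adjusted p = 0.228). HOXA13, the most posterior HOXA gene, was at 59.6 ± 7.97 CPM in control and 87.3 ± 3.49 in HCQ-evolved OVCAR3 (log2 fold change 0.57, adjusted p = 0.177) and at 77.3 ± 8.43 and 106 ± 3.17 in CCL218 (0.45, adjusted p = 0.0811). HOXC8 was at 3.03 ± 1.12 and 0.973 ± 0.445 CPM in OVCAR3 (log2 fold change -1.61, adjusted p = 0.103) and at 1.88 ± 0.690 and 0.995 ± 0.200 in CCL218 (-0.92, adjusted p = 0.139).

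**Figure D3:**
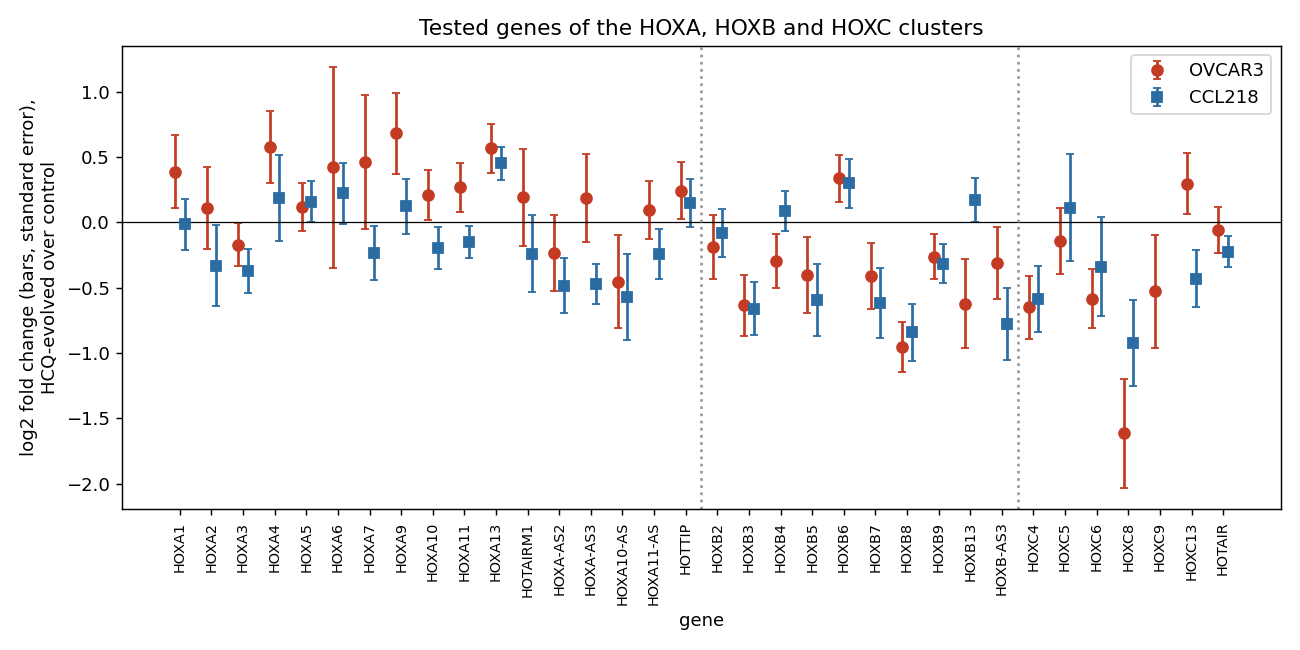
Log2 fold change of HCQ-evolved over control pools (y axis, bars are standard errors from edgeR) for the tested genes of the HOXA, HOXB and HOXC clusters (x axis, separated by dotted lines), with circles for OVCAR3 and squares for CCL218. In both lines HOXB8 and HOXC8 lie among the lowest points and HOXA13 lies above 0, and no gene passed an adjusted p of 0.05 in this fit.

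Genes that act with or on HOX genes were counted from lists. Of all genes tested, 16.2% in OVCAR3 and 25.2% in CCL218 had an unadjusted p under 0.05 (edgeR), and DESeq2 called 9.05% and 17.7%. Of the HOX cofactors of the PBX, MEIS and related families, 9 were tested in each line and 0 passed with edgeR or DESeq2 (1 in OVCAR3 and 0 in CCL218 at an unadjusted p under 0.05). PBX3 was the nearest in OVCAR3 (log2 fold change 0.63, adjusted p = 0.215) and MEIS2 in CCL218 (-0.25, adjusted p = 0.253). Of 10 retinoic acid genes tested, which make, degrade or receive a signal that activates HOX genes, 0 passed in either line with either tool (2 in OVCAR3 and 1 in CCL218 at an unadjusted p under 0.05). ALDH1A1, which makes retinoic acid, was at -0.61 in OVCAR3 (adjusted p = 0.215), and CYP26A1, which degrades it, was at 0.69 in CCL218 (adjusted p = 0.15).

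Of 31 Polycomb genes tested, 0 passed in OVCAR3 (8 at an unadjusted p under 0.05 and 5 by DESeq2, beside 16.2% and 9.05% of all genes). In CCL218, 2 rose and 1 fell (3.82% and 2.64% of all genes did so), and 6 passed with the block, beside 14.2% of all genes. There 11 were at an unadjusted p under 0.05 and DESeq2 called 8, beside 25.2% and 17.7% of all genes. CBX7, a chromodomain subunit, rose by 0.92 on the log2 scale (SE 0.14, adjusted p = 0.0116). EED, a core subunit of the H3K27 methylating complex, rose by 0.67 (SE 0.14, adjusted p = 0.0391). CBX2, another chromodomain subunit, fell by 0.89 (SE 0.16, adjusted p = 0.0218). Of 22 Trithorax and H3K27 demethylase genes, 0 passed in OVCAR3 (1 at an unadjusted p under 0.05 and by DESeq2, KDM6B at -1.06, edgeR adjusted p = 0.102). In CCL218, 1 passed, 4 were at an unadjusted p under 0.05 and DESeq2 called 3. MEN1, the gene of menin, was the one that passed and fell by 0.73 (SE 0.15, edgeR adjusted p = 0.0363). The calls of CBX7, EED, CBX2 and MEN1 were each lost when control pool R or any single HCQ-evolved pool of CCL218 was left out (highest adjusted p = 0.0931, 0.198, 0.159 and 0.215), and those of EED, CBX2 and MEN1 also without control pool M. With all 12 libraries in one fit CBX7 (adjusted p = 0.0605) and EED (adjusted p = 0.0999) did not pass. The difference between the lines passed for 0 Polycomb genes (2 at an unadjusted p under 0.05) and 0 Trithorax genes (2 at an unadjusted p under 0.05).

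The genes that flank the cluster were expressed in both lines. The 5 nearest tested genes on either side were LNPK, ATP5MC3, ATF2, H3P6 and SCRN3 before HOXD13 and MTX2, HNRNPA3, NFE2L2, AGPS and TTC30B after HOXD1. In OVCAR3, 0 of the 10 passed with edgeR (1 at an unadjusted p under 0.05, LNPK, which DESeq2 called), with log2 fold changes between -0.42 and 0.98 and a median of 0.10. Over all genes tested there, 16.2% were at such a p and DESeq2 called 9.05%. LNPK, an endoplasmic reticulum gene 89.9 kb from HOXD13, rose in CCL218 by 0.96 on the log2 scale (SE 0.19, adjusted p = 0.0337), from 36.1 ± 8.70 to 70.5 ± 4.18 CPM. It was at 0.98 in OVCAR3 (SE 0.30, adjusted p = 0.158), from 35.3 ± 9.15 to 68.7 ± 20.2 CPM. Its call in CCL218 was lost without control pool R or any single HCQ-evolved pool (highest adjusted p = 0.186) and in the fit of all 12 libraries (adjusted p = 0.0573). MTX2, a mitochondrial import gene 78.5 kb from HOXD1, was at 0.12 in OVCAR3 (adjusted p = 0.876) and -0.02 in CCL218 (adjusted p = 0.930). Its sign turned in some alternatives. H3P6 is a histone pseudogene whose reads may belong to other copies.

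**Figure D4:**
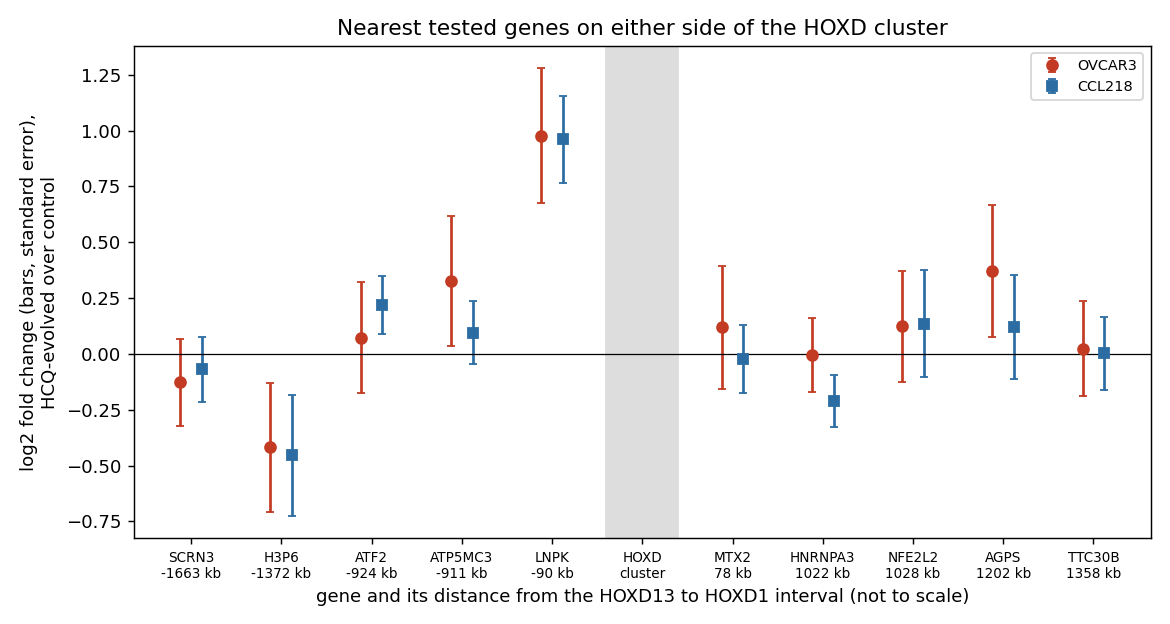
Log2 fold change of HCQ-evolved over control pools (y axis, bars are standard errors from edgeR) for the 5 nearest tested genes on each side of the HOXD cluster (x axis in gene order, not to scale, with distances in kb), with circles for OVCAR3 and squares for CCL218. LNPK lies near 1 in both lines and the other 9 genes lie between -0.45 and 0.37.

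Across the 12 libraries, the genes whose log2(CPM + 0.5) was most like that of HAGLR, of 12612 compared, were CP (Pearson r = 0.978), DMBT1 (0.976), OXCT1 (0.976), SMC1B (0.974) and IKZF3 (0.963). The libraries share the 4 groups, so each r mainly reflects that control OVCAR3 stands apart from the other groups. CP, the gene of ceruloplasmin, was at 1.69 CPM in control OVCAR3 and at 0.0937 to 0.161 CPM in the other groups. OXCT1, a ketone body enzyme of mitochondria, was at 3.85 CPM and 0.0121 to 0.0515 CPM. DMBT1, a secreted epithelial glycoprotein, was at 3.47 and 0.111 to 0.298 CPM. The most opposite genes were MX2 (r = -0.944), KLHL5 (-0.942), NFE2L3 (-0.940), LINC02432 (-0.936) and IFI44L (-0.930). IFI44L and MX2, both interferon-stimulated, were at 0.397 and 1.35 CPM in control OVCAR3 and at 3.62 to 8.44 and 6.23 to 9.62 CPM in the other groups. HAGLROS had r = 0.951. These values are descriptions of 12 libraries in 4 groups and carry no test.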

How the data were processed

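PolyA RNA of 12 pools was analysed. The authors aligned reads to hg38 with STAR, removed duplicates and deposited whole-number counts per gene from featureCounts. The strand setting and the annotation are not given in the sources used here. Members (9), gene lists (10) and the naming rule were chosen with earlier results of these data known. Genes named were the members, other rows of the locus, the 5 nearest tested genes on each side and the 5 most and least like HAGLR. The gene of smallest p in each line was also named for each list other than the marker lists.

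Tests used the edgeR 4.0.16 quasi-likelihood method (R 4.3.3, TMM, robust, legacy mode) on genes that reached 1 CPM in 3 or more libraries, line by line, and p was adjusted after Benjamini-Hochberg with 0.05 as the threshold. The difference between lines and that between controls came from one fit of 12 libraries. The procedure was tested on simulated counts. Members below the filter were compared by the exact permutation test on log2(CPM + 0.5). Intervals of pooled folds are exact conditional 95% intervals and cover counting error only. The floor of 3 counts also covers counting error only and takes no account of counts that come in pairs. DESeq2 1.42.0 was an alternative. Exon lengths came from GENCODE 44, in which 25763 of 28278 symbols matched (91.1%), and promoter sequences from RefSeq.

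No library repeated another (r = 0.909 to 0.996 between libraries). After removal of group means, pools at the same plate position correlated at r = 0.578 (L), 0.310 (M) and 0.241 (R) in CCL218 and at 0.452, -0.726 and -0.528 in OVCAR3. In CCL218 r was thus above 0 at each position. The correlations of pool deviations with transcript length (rho, control then HCQ-evolved) shared a sign there. They were -0.453 and -0.221 (L), 0.441 and 0.262 (M) and 0.0274 and 0.431 (R). In OVCAR3 they shared a sign at L (-0.325 and -0.391) but not at M (0.491 and -0.413) or R (-0.390 and 0.531). Whether position or this length trend paired the pools was not tested. The main fits had no block in either line. The blocked values of CCL218 are given for the HOX genes whose call they change and as a count for Polycomb. Of the ovarian markers, MSLN also passed in CCL218 with the block (log2 fold change 0.81, edgeR adjusted p = 0.0167, against 0.181 without it). Of the colorectal markers, 4 passed there without the block and 5 with it, beside 6.46% and 14.2% of all genes. Exomes and single cells were not analysed here. The result of 1 gene that the naming rule picked is not reported here.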

Additional observations from a re-analysis of the deposited data

Results flagged for a closer look

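CDH17, an intestinal cadherin on the list of colorectal markers, changed differently in the lines. It was at 3.34 ± 0.539 CPM in control and 3.49 ± 1.55 CPM in HCQ-evolved OVCAR3 (SD, n = 3) and at 3.84 ± 1.26 and 52.5 ± 6.66 CPM in CCL218. The change in CCL218 exceeded that in OVCAR3 by 3.71 on the log2 scale (SE 0.50, edgeR interaction term, adjusted p = 0.00555). It was the 1 of 8 tested colorectal markers that passed for this difference, beside 0.872% of all genes. Between the CCL218 groups, 3 of 7 tested colorectal markers passed as higher, CDH17 among them, beside 3.82% of all genes. There 1 passed as lower (LGR5, 37.5 CPM in control and 16.6 CPM in HCQ-evolved pools), beside 2.64% of all genes.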

How the results depend on the processing

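HAGLR was lower in HCQ-evolved OVCAR3 under every alternative in which it could be fitted. As HAGLR was chosen for its fall in these libraries, the alternatives only describe the size of that fall. The HAGLR log2 fold change was -6.26 with DESeq2, -6.21 with plate position as a replicate block and -9.42 to -5.54 with 1 HCQ-evolved pool left out, the lowest without pool L, the only one with counts. Members called in OVCAR3 were 0 to 1 with 1 pool left out. Without any control pool HAGLR failed the filter, and without HCQ-evolved pool M it was not called. With a pseudocount of 0.1 or 1, chosen after seeing the data, the log2 differences were -1.43 and -0.25 for HOXD8, -1.11 and -0.17 for HOXD9, and -2.81 and -0.92 for HAGLROS.

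Counts of calls depended on the setting. OVCAR3, with 227 genes called, had 1105 with DESeq2, 549 without a filter, 81 with the block, 854 after removal of the length and GC trend, 1165 in the fit of all libraries and 3 to 557 with 1 pool left out. CCL218, with 791, had 2172 with DESeq2, 1744 with the block, 2027 after removal of the trend and 102 to 3047 with 1 pool left out, the most without control pool L. The difference between lines, with 110, had 463 with DESeq2, 35 with the block and 38 to 212 with 1 pool left out. The control contrast, with 431, had 925 with DESeq2, 249 from the 6 control libraries alone and 181 to 790 with 1 pool left out. HOXA, HOXB and HOXC genes called in OVCAR3 were 3 with DESeq2, 2 without a filter, 2 after removal of the trend, 3 in the fit of all libraries and 0 to 1 with 1 pool left out. In CCL218 they were 4 with DESeq2, 1 without a filter, 2 with the block, 3 after removal of the trend, 1 in the fit of all libraries and 0 to 7 with 1 pool left out. The MTX2 log2 fold change turned to 0.014 without a filter and 0.034 after removal of the trend in CCL218, and with 1 pool left out it ran from -0.12 to 0.077 there and from -0.050 to 0.35 in OVCAR3. The causes were not tested. In OVCAR3 the pools share only a position. Deviations of a pool from the mean log2 level correlated with transcript length at rho from -0.453 to 0.531, with both signs within each of the 4 groups.

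At 31147822 to 59965861 counts per library, modest changes of HOXD genes with 0 to 16 counts per library were not detectable.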

Other observations

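A search chosen after the data were seen asked which genes had at least 10 counts in every pool of a group and lay more than 4-fold above every pool of the other groups. In control OVCAR3 this held for 13 of 13393 genes (0.0971%), HAGLR and HAGLROS among them. The search was modelled on the pattern of HAGLR, which was chosen for its fall in OVCAR3 and overlaps HAGLROS. Nothing is therefore read from the place of HAGLR and HAGLROS in it. The other genes found were IKZF3, DMBT1, CP, FBN2, MAGEA12, KIF19, HBEGF, SMC1B, CECR7, OXCT1 and RANBP17. HBEGF, an EGF receptor ligand, was the most abundant, at 53.6 to 59.4 CPM in control OVCAR3 against 3.46 to 4.02 CPM in HCQ-evolved OVCAR3, 11.6 to 13.1 CPM in control CCL218 and 8.09 to 9.75 CPM in HCQ-evolved CCL218. MAGEA12, a cancer-testis antigen, was at 8.23 to 11.3 CPM against at most 1.54 CPM elsewhere. The same search returned 2 genes for HCQ-evolved OVCAR3, 0 for control CCL218 and 9 for HCQ-evolved CCL218.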
